A study of Homo sapiens with 5 samples.

Results

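NDUFAF4 and 9 other assembly factors of mitochondrial complex I were followed across 5 libraries of HEK293, an established human cell line of embryonic kidney origin. The 10 genes, NDUFAF1 to NDUFAF7, ECSIT, ACAD9 and TIMMDC1, were taken by symbol from a table of 24497 gene rows, and all 10 were among the 9215 genes that passed the filter on low counts. NDUFAF4 was chosen because earlier results on these libraries showed it lower in batch B, so its difference between the batches is given as a description with no test. The other 9 were listed for their function.

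Batch B held 3 libraries and batch A held 2. Both batches were of untreated HEK293 cells grown in DMEM with glutamine and fetal calf serum, and the labels give no difference between them other than the batch. Each library carried the material of 100 cells out of a lysate of 1000, amplified over 18 cycles of PCR, and only fragments from the 5' end of oligo-dT-primed cDNA were sequenced. Gene counts came to 373687, 575472 and 685181 in batch B libraries 1, 2 and 3, and to 686883 and 803168 in batch A libraries 2 and 3, the numbers being those that end the deposited columns. Of 8 markers listed for HEK293, 7 passed the low-count filter and 0 were called (edgeR adjusted p under 0.05), with VIM at 517 ± 27.8 CPM (a count scaled to a library total of 1e6) in batch B and 428 ± 15.96 CPM in batch A (SD, n = 3 and 2), while PAX2 was at 1.96 ± 0.637 CPM in batch B and 3.22 ± 2.49 CPM in batch A. Markers of other cells summed to 16.1 to 27.7 CPM in batch B and 7.28 to 13.7 CPM in batch A over the 6 of 9 with a row, and CD3E and ALB were at 0 in all libraries. The labels do not say whether libraries came from separate cultures, so a p-value here reflects only how far these libraries vary, and that variation may be technical.

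Complex I, NADH:ubiquinone oxidoreductase, is the entry point of the respiratory chain and is built in the inner mitochondrial membrane from nuclear-encoded and mitochondrially encoded subunits. Assembly factors hold intermediates together, modify subunits or insert cofactors and are absent from the finished enzyme. NDUFAF3 and NDUFAF4 bind each other and act on the module that reduces ubiquinone, NDUFAF5, NDUFAF6 and NDUFAF7 act on the same module or the membrane subunit beside it, NDUFAF1, ECSIT and ACAD9 form the core of the complex that builds a part of the membrane arm, TIMMDC1 is a membrane protein of that arm, and NDUFAF2 joins late.

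Since the libraries read the 5' ends of transcripts, the promoters of 3 members are shown, with the annotated start after base 250 of each 300-base window. The sequences are those of RefSeq on GRCh38.p14, a later build than the hg19 and GRCh37 of the submitters' processing notes, and are given as reference sequence only. NDUFAF4 lies at chr6:96897842-96898141 on the minus strand, NDUFAF5 at chr20:13784778-13785077 on the plus strand and TIMMDC1 at chr3:119498297-119498596 on the plus strand. NDUFAF4 shares the letters GCGCATGC with NDUFAF5 and the letters CCGGAAG with TIMMDC1, and capitals mark these and the other searched motifs named after the sequences.
NDUFAF4: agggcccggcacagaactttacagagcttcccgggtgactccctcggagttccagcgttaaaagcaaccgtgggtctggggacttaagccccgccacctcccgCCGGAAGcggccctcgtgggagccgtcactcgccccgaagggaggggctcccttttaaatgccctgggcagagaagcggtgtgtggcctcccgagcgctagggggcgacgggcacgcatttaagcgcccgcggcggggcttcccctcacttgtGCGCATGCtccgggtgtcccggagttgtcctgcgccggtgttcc
NDUFAF5: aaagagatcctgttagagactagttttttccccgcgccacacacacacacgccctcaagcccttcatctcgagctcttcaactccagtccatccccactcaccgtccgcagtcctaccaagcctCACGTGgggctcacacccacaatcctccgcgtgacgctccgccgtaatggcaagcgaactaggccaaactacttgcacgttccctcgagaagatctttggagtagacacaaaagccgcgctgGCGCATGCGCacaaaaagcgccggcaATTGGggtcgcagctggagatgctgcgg
TIMMDC1: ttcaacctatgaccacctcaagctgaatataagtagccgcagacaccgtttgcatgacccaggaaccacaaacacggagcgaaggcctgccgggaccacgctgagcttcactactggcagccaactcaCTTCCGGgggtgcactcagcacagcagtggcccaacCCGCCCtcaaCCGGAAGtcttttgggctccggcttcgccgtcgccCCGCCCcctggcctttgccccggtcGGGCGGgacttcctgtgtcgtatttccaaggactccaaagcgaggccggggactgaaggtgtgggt

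Windows were found for 9 of the 10 genes, 13 windows in all, since NDUFAF3 and ECSIT have several annotated starts. The 7 motifs were searched on both strands and were chosen after the NDUFAF4 promoter had been seen. In NDUFAF4, GCGCATGC, part of the site of NRF1, a regulator of nuclear genes for mitochondria, lay at bases 7 to 14 after the start, and CCGGAAG, a core recognised by ETS factors, lay at bases -147 to -141. In NDUFAF5 the letters GCGCATGC and their reverse complement overlapped across the start, from base -4 to base 6. GCGCATGC was in 2 of the 13 windows and in 3.05% of all 35116 windows of the same length. CCGGAAG was in 2 of the 13 and in 10.3% of all. The NDUFAF4 window, seen before the motifs were chosen, is among the 2 in each case. CACGTG, the E-box bound by MYC and related factors, was in 2 of the 13, those of ACAD9 and NDUFAF5, against 7.26% of all. CCAAT was in 5 of the 13 and 34.6% of all, and GGGCGG was in 9 of the 13 and 45.0% of all. Counted by gene, CCAAT was in 4 of 9 and GGGCGG in 6 of 9. AAGATGGC was in 0 of the 13 and 2.89% of all, and TATAAA was in 0 of the 13 and 11.5% of all. A match describes letters and is no evidence of binding.

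NDUFAF4 was the member that set the batches apart most in fitted size. It had 55, 98 and 110 counts in batch B libraries 1, 2 and 3, or 147, 170 and 161 CPM, against 396 and 404 counts in batch A libraries 2 and 3, or 577 and 503 CPM. The highest batch B library lay far below the lower batch A library, and the groups did not overlap. The means were 159 ± 11.6 CPM in batch B and 540 ± 51.98 CPM in batch A (SD, n = 3 and 2), a fitted log2 fold change of -1.72 (SE 0.12) or a 3.29-fold lower level in batch B. Within each batch the libraries lay close together, with a coefficient of variation of 7.28% in batch B, where counting alone gives 10.7% at the mean count, and 9.63% in batch A, where counting alone gives 5.0%. In material pooled from 100 cells, fewer cells with a transcript and less of it per cell cannot be told apart.

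Among all rows of each library, NDUFAF4 ranked 1336, 1173 and 1293 by count in batch B libraries 1, 2 and 3, against 253 and 303 in batch A libraries 2 and 3. Of the 9215 tested genes, 5 had a lower fitted log2 fold change. All 505 tested genes of equal or higher mean abundance (mean log2 CPM of at least 8.41) had log2 fold changes between -0.59 and 0.86, a comparison chosen after its values were seen.

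**Figure D1:**
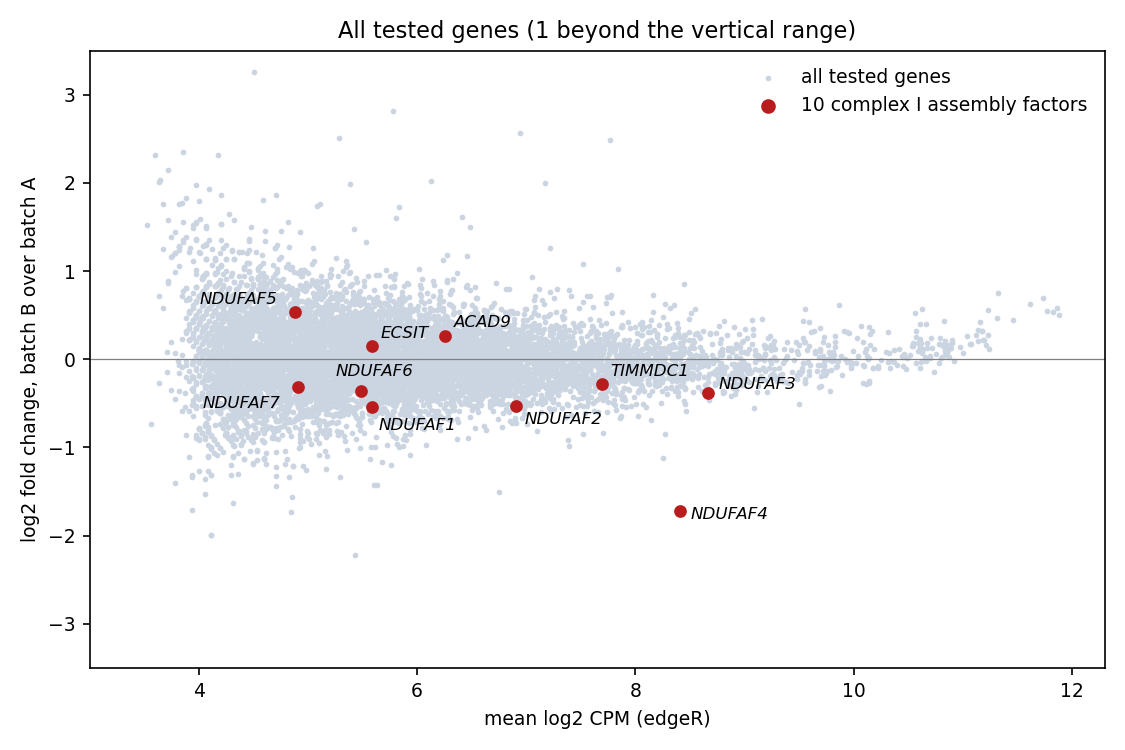
Mean log2 CPM from the edgeR fit (horizontal axis) against the log2 fold change of batch B over batch A (vertical axis) for the 9215 tested genes, with the 10 assembly factors in red and 1 gene beyond the vertical range. NDUFAF4, chosen by this difference, lies at -1.72 at a mean log2 CPM of 8.41. It is below all 505 genes that are at least as abundant, a comparison chosen after its values were seen.

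NDUFAF3, the binding partner of NDUFAF4, was lower in batch B by a smaller amount. It had 294, 346 and 372 CPM in batch B libraries 1, 2 and 3, against 483 and 428 CPM in batch A libraries 2 and 3, with no overlap. Its log2 fold change was -0.38 (SE 0.10), and it passed the test across all genes (edgeR adjusted p = 0.0131). Omitting batch A library 2 ended the call (-0.27, edgeR adjusted p = 0.403), as did omitting batch B library 1 (0.0703) or library 2 (0.0761), and its adjusted p ran from 0.00224 to 0.403 over all 11 alternatives (edgeR, and DESeq2 for 1 of them). The ratio of NDUFAF4 counts to NDUFAF3 counts, which needs no scaling between libraries, was 0.500, 0.493 and 0.431 in batch B libraries 1, 2 and 3, against 1.19 and 1.17 in batch A libraries 2 and 3. NDUFAF4 thus outnumbered its partner in both batch A libraries and was the less counted of the pair in the 3 batch B libraries. The same held for its share of the summed counts of the 10 genes, which was 15.8% (95% exact binomial interval 12.1 to 20.0), 16.2% (13.3 to 19.4) and 15.2% (12.7 to 18.0) in batch B, against 35.6% (32.8 to 38.5) and 31.5% (29 to 34.2) in batch A. These intervals cover counting error only.

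**Figure D2:**
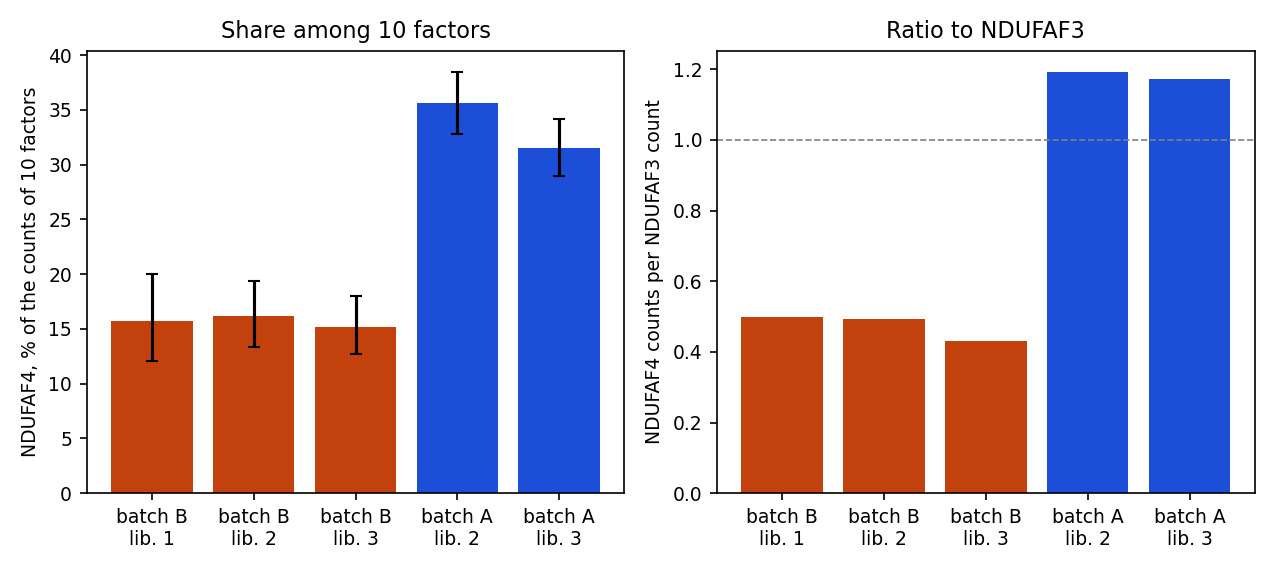
NDUFAF4 as a percentage of the summed counts of the 10 assembly factors (left, bars with 95% exact binomial intervals) and as counts per NDUFAF3 count (right), for batch B (orange) and batch A (blue) libraries, with a dashed line at equal counts. The share lies at 15.2% to 16.2% in batch B and 31.5% to 35.6% in batch A, and the ratio lies below the line in every batch B library and above it in both batch A libraries.

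Among the other factors of the ubiquinone module, fitted differences had both signs and 0 passed the test. NDUFAF5, which hydroxylates an arginine of the core subunit NDUFS7, had 16.1, 33.02 and 35.03 CPM in batch B libraries 1, 2 and 3, against 18.9 and 22.4 CPM in batch A libraries 2 and 3, and the groups overlapped (log2 fold change 0.53, SE 0.37, edgeR adjusted p = 0.518). Its client NDUFS7 was at 107 ± 20.5 CPM in batch B and 93.8 ± 9.40 CPM in batch A (SD, n = 3 and 2; 0.25, edgeR adjusted p = 0.512). NDUFAF7, an arginine methyltransferase, had 24.1, 22.6 and 23.4 CPM in batch B, against 26.2 and 32.4 CPM in batch A. All batch B libraries were below both batch A libraries, with 9 to 16 and 18 to 26 counts a library, and the difference missed the threshold (-0.32, SE 0.36, edgeR adjusted p = 0.740). NDUFAF6, needed for an early step near the membrane subunit ND1, had 32.1, 36.5 and 36.5 CPM in batch B, against 33.5 and 57.3 CPM in batch A. Only batch A library 3 stood above the batch B range (-0.36, SE 0.28, edgeR adjusted p = 0.578), and without it the fitted value was 0.085.

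The 3 core members of the membrane-arm assembly complex had groups that overlapped. NDUFAF1 had 53.5, 27.8 and 32.1 CPM in batch B libraries 1, 2 and 3, against 39.3 and 64.7 CPM in batch A libraries 2 and 3 (log2 fold change -0.54, SE 0.27, edgeR adjusted p = 0.289). It spread widely within a batch, with a coefficient of variation of 36.4% in batch B, where counting alone gives 22.7%, and 34.6% in batch A, where counting alone gives 15.9%. Without batch A library 3 its log2 fold change was -0.13, and without batch B library 1 it was -0.79. ECSIT, which is also an adaptor in Toll-like receptor signalling, had 56.2, 46.9 and 38.0 CPM in batch B, against 43.7 and 39.8 CPM in batch A (0.15, SE 0.27, edgeR adjusted p = 0.856). ACAD9, a flavoprotein related to the acyl-CoA dehydrogenases of fatty acid oxidation, had 74.9, 73.0 and 81.7 CPM in batch B, against 51.0 and 77.2 CPM in batch A (0.27, SE 0.21, edgeR adjusted p = 0.575). Batch A library 2 alone lay low for ACAD9, and the fitted value without it was 0.04. Of the other acyl-CoA dehydrogenases, 6 of 10 passed the low-count filter. Of those 0 were called, where 4.2% of all tested genes were. Their median log2 fold change was -0.26, against 0.004 over all tested genes.

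TIMMDC1, an inner-membrane protein of the family of the import channel proteins, had 155, 193 and 182 CPM in batch B libraries 1, 2 and 3, against 198 and 243 CPM in batch A libraries 2 and 3. The groups were separated by a narrow gap and the difference missed the threshold (log2 fold change -0.28, SE 0.13, edgeR adjusted p = 0.226). Omission of batch A library 3 gave -0.137 (edgeR adjusted p = 0.820). The relatives of TIMMDC1 in the translocases bring proteins into or across the inner membrane. Of these, TIMM17A fell by 0.41 (edgeR adjusted p = 0.0180) and TIMM22 fell by 0.49 (edgeR adjusted p = 0.0481) on the log2 scale. TIMM17B (-0.10) and TIMM23 (-0.39) did not pass the test. Beside these 2 of 4, 2.05% of all tested genes were called as lower in batch B and 4.2% in either direction. TIMM17A was at 230 ± 24.02 CPM in batch B and 314 ± 17.6 CPM in batch A, and TIMM22 was at 104 ± 9.66 CPM in batch B and 147 ± 10.5 CPM in batch A (SD, n = 3 and 2). TIMM17A lost its call when either batch A library, or library 1 or 2 of batch B, was omitted, with edgeR adjusted p of at most 0.245. TIMM22 lost its call when either batch A library, or library 2 or 3 of batch B, was omitted (at most 0.420), and also with DESeq2 size factors (0.0520), with no low-count filter (0.105) and after thinning (0.446).

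NDUFAF2, a paralog of the accessory subunit NDUFA12 that acts at a late step, had 80.3, 104 and 93.4 CPM in batch B libraries 1, 2 and 3, against 150 and 127 CPM in batch A libraries 2 and 3. The groups did not overlap, and the log2 fold change was -0.53 (SE 0.17, edgeR adjusted p = 0.0396). Omitting any 1 of the 5 libraries ended the call, with edgeR adjusted p = 0.0969, 0.0558 and 0.140 for batch B libraries 1, 2 and 3 and 0.469 and 0.0605 for batch A libraries 2 and 3. The log2 fold change ran from -0.667 to -0.385 over these fits. The call was also lost with no low-count filter (0.0865) and after thinning (0.161). NDUFA12 was at 416 ± 27.2 CPM in batch B and 486 ± 26.1 CPM in batch A (-0.19, edgeR adjusted p = 0.363). NDUFAF2 counts per NDUFA12 count were 0.208, 0.246 and 0.213 in batch B libraries, against 0.321 and 0.252 in batch A libraries.

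**Figure D3:**
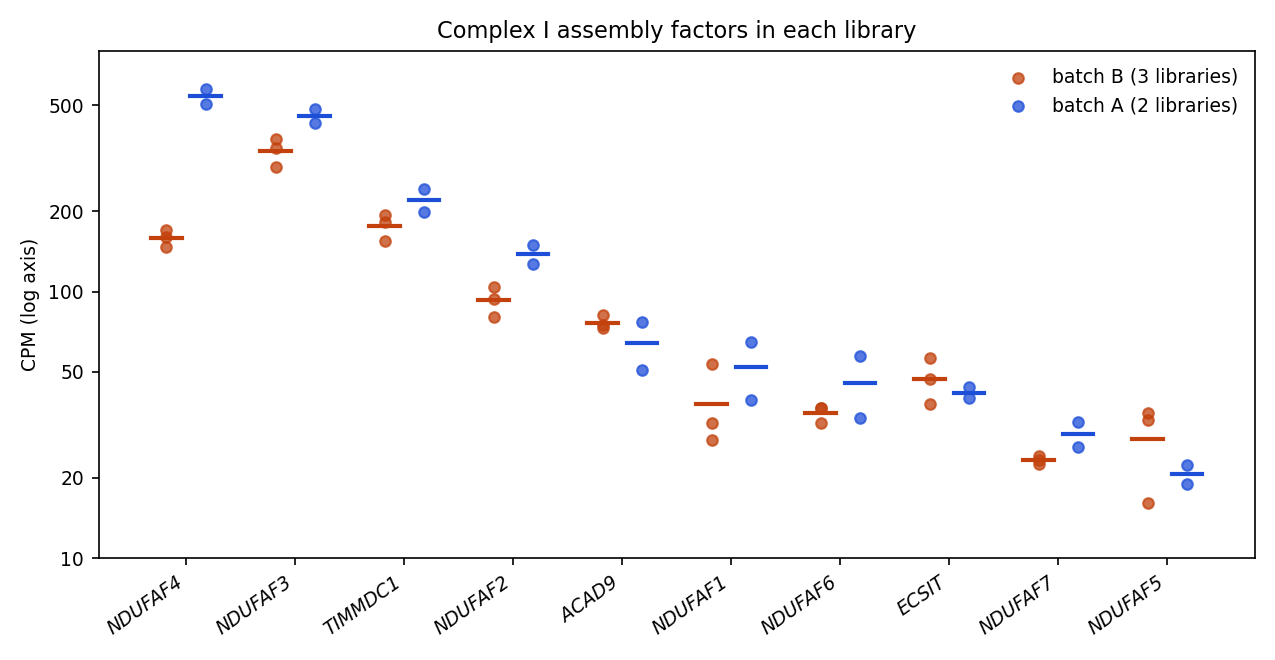
CPM on a log axis for each of the 10 assembly factors in 3 batch B libraries (orange, left) and 2 batch A libraries (blue, right), ordered by the batch A mean, with bars at the means. NDUFAF4, chosen by this difference, has the widest gap, at 159 CPM in batch B and 540 CPM in batch A. Of the other 9 genes, those whose points do not overlap are NDUFAF3, NDUFAF2, NDUFAF7 and TIMMDC1, all lower in batch B. Of all tested genes, 17.8% were lower in batch B without overlap, and 31.3% had no overlap in either direction.

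Of the 9 genes other than NDUFAF4, 2 fell (NDUFAF2 and NDUFAF3), 0 rose and 7 did not pass the test, where 387 of 9215 tested genes (4.2%) were called in either direction, 2.05% as lower and 2.15% as higher in batch B. Their median log2 fold change was -0.32, with 6 of 9 below 0, against a median of 0.004 over all tested genes, of which 4566 were below 0. In 4 of these 9 genes, NDUFAF2, NDUFAF3, NDUFAF7 and TIMMDC1, the highest batch B library lay below the lowest of batch A, where 17.8% of the tested genes did so, and in 0 of the 9 did the reverse hold (31.3% of tested genes had no overlap in either direction). NDUFAF4 is not counted there, since its choice fixed its direction. The summed level of the 10 genes was 1014 ± 69.4 CPM in batch B and 1608 ± 18.0 CPM in batch A (SD, n = 3 and 2), and without NDUFAF4 it was 855 ± 59.2 CPM in batch B and 1068 ± 33.9 CPM in batch A. Without NDUFAF2 and NDUFAF3 too, the other 7 summed to 412, 433 and 429 CPM in batch B libraries. In batch A libraries 2 and 3 they summed to 411 and 537 CPM, so the overlap came from library 2 alone. NDUFAF2 and NDUFAF3 were left out because they were called for this same difference, so the overlap is no separate finding.

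The order of the genes by level differed between the batches, at the top through NDUFAF4 and lower down through genes of similar level. Per kilobase of the principal GENCODE transcript, the 4 highest in batch B were NDUFAF3 at 168, NDUFAF2 at 129, TIMMDC1 at 73.9 and NDUFAF4 at 66.4 CPM, and in batch A they were NDUFAF3 at 227, NDUFAF4 at 225, NDUFAF2 at 193 and TIMMDC1 at 92.1 CPM. NDUFAF5, with the longest transcript of the 10, was lowest at 5.07 CPM per kilobase in batch B and 3.74 in batch A. The libraries read 5' ends, so that counts need not grow with length. By CPM without length, NDUFAF4 stood behind NDUFAF3 and TIMMDC1 in batch B and ahead of every other member in batch A. Among the low genes, ECSIT stood above NDUFAF1 and NDUFAF6 in batch B and below both in batch A, and NDUFAF5 and NDUFAF7 changed places, with libraries of the 2 batches overlapping for each of these except NDUFAF7.

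Complex I assembly factors outside the 10 genes, a list of 9, included 1 that fell, 0 that rose and 8 that did not pass the test. Their median log2 fold change was -0.07. Over all tested genes 4.2% were called, 2.05% as lower in batch B. COA1, a small inner-membrane protein also tied to cytochrome c oxidase assembly, fell by 0.55 (SE 0.14, edgeR adjusted p = 0.00721), at 126 ± 5.69 CPM in batch B and 187 ± 7.35 CPM in batch A (SD, n = 3 and 2). Omitting either batch A library (edgeR adjusted p = 0.161 for library 2 and 0.0502 for library 3) or batch B library 3 (0.0785) ended the call. TMEM126B, which joins NDUFAF1, ECSIT and ACAD9 in the membrane-arm complex, was at 87.6 ± 17.5 CPM in batch B and 117 ± 24.3 CPM in batch A (-0.41, edgeR adjusted p = 0.201). NUBPL, which delivers iron-sulfur clusters, was at 38.9 ± 8.19 CPM in batch B and 22.2 ± 10.8 CPM in batch A (0.84, edgeR adjusted p = 0.141).

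**Figure D4:**
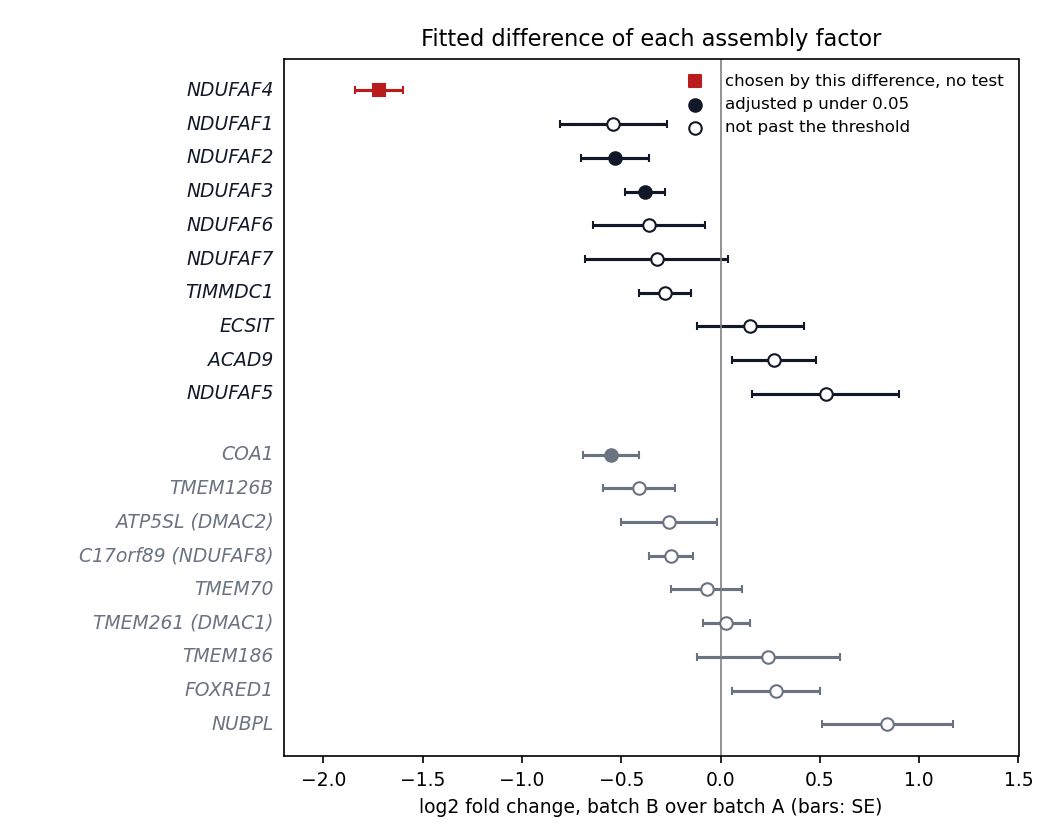
Log2 fold change of batch B over batch A with its standard error for the 10 assembly factors (above) and 9 other complex I assembly factors (below, grey). The red square is NDUFAF4, chosen by this difference and given no test, and filled circles passed an edgeR adjusted p of 0.05. NDUFAF4 lies at -1.72 and the other 18 genes lie between -0.55 and 0.84.

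The assembly factors of complexes II to V, taken as 4 lists together, numbered 36, of which 2 fell, 0 rose and 34 did not pass the test. Over all tested genes 4.2% were called, 2.05% as lower in batch B. The median log2 fold change of the 36 was -0.26, with 30 of 36 below 0, where 4566 of 9215 tested genes were below 0. The ACN9 row, the older symbol of the complex II factor SDHAF3, fell by 0.67 (edgeR adjusted p = 0.0300), and COA6, which helps to bring copper to cytochrome c oxidase, fell by 0.43 (edgeR adjusted p = 0.0481). Both calls were lost without a filter on low counts and after thinning. ACN9 also lost its call whichever of the 5 libraries was omitted, with edgeR adjusted p of at most 0.323. COA6 also lost its call when either batch A library, or library 1 or 2 of batch B, was omitted (at most 0.373), and with DESeq2 size factors (0.0531) and the DESeq2 Wald test (0.342). ACN9 was at 59.2 ± 5.65 CPM in batch B and 96.7 ± 11.2 CPM in batch A, and COA6 was at 134 ± 42.5 CPM in batch B and 194 ± 8.09 CPM in batch A (SD, n = 3 and 2). The lists of complex III factors (6 of 6 below 0, median -0.21) and complex IV factors (20 of 23 below 0, median -0.28) had 0 and 1 called genes.

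Nuclear-encoded subunits of complex I had median differences near 0, and 5 of 7 mitochondrially encoded ones were called higher in batch B. Of 7 nuclear-encoded core subunits 0 were called (median log2 fold change -0.01, from -1.10 for the low NDUFV2 to 0.25). Among 28 accessory subunits with a row 2 rose and 26 did not pass the test (median -0.09). Below 0 were 21 of these 28 and 4 of the 7 core subunits, against 4566 of 9215 tested genes. Over all tested genes 2.15% were called as higher in batch B. NDUFA13 was at 57.5 ± 15.6 CPM in batch B and 19.7 ± 7.31 CPM in batch A and rose by 1.48, and NDUFA11 was at 214 ± 29.3 CPM in batch B and 135 ± 8.30 CPM in batch A and rose by 0.72 (edgeR adjusted p = 0.000253 and 2.62e-05). The 7 mitochondrially encoded subunits summed to 14290 to 20340 CPM in batch B and 11470 to 12600 CPM in batch A, and 5 of them rose (median 0.56), led by MT-ND2 (0.75, edgeR adjusted p = 9.23e-07). Omission of batch A library 3 ended the calls of MT-ND1, MT-ND3, MT-ND4 and MT-ND5 (edgeR adjusted p = 0.387, 0.173, 0.175 and 0.201). Omission of batch B library 1 ended those of MT-ND1 (0.274 on the log2 scale) and MT-ND4 (0.351), and MT-ND1 lost its call in 4 of the 5 such fits, that without batch B library 3 being the exception. The DESeq2 Wald test also did not call MT-ND1 or MT-ND4 (adjusted p = 0.133 and 0.119). The highest sum was that of batch B library 1, the shallowest. With all libraries thinned to the depth of the smallest, the log2 fold changes of the 5 genes were 0.435 (MT-ND1, edgeR adjusted p = 0.0548) to 0.766 (MT-ND2), and the other 4 kept their calls. The prohibitins PHB and PHB2, which form a scaffold in the inner membrane, were at 414 ± 18.9 and 413 ± 42.8 CPM in batch B, against 460 ± 14.7 and 414 ± 1.98 CPM in batch A (edgeR adjusted p = 0.623 and 0.991).

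**Figure D5:**
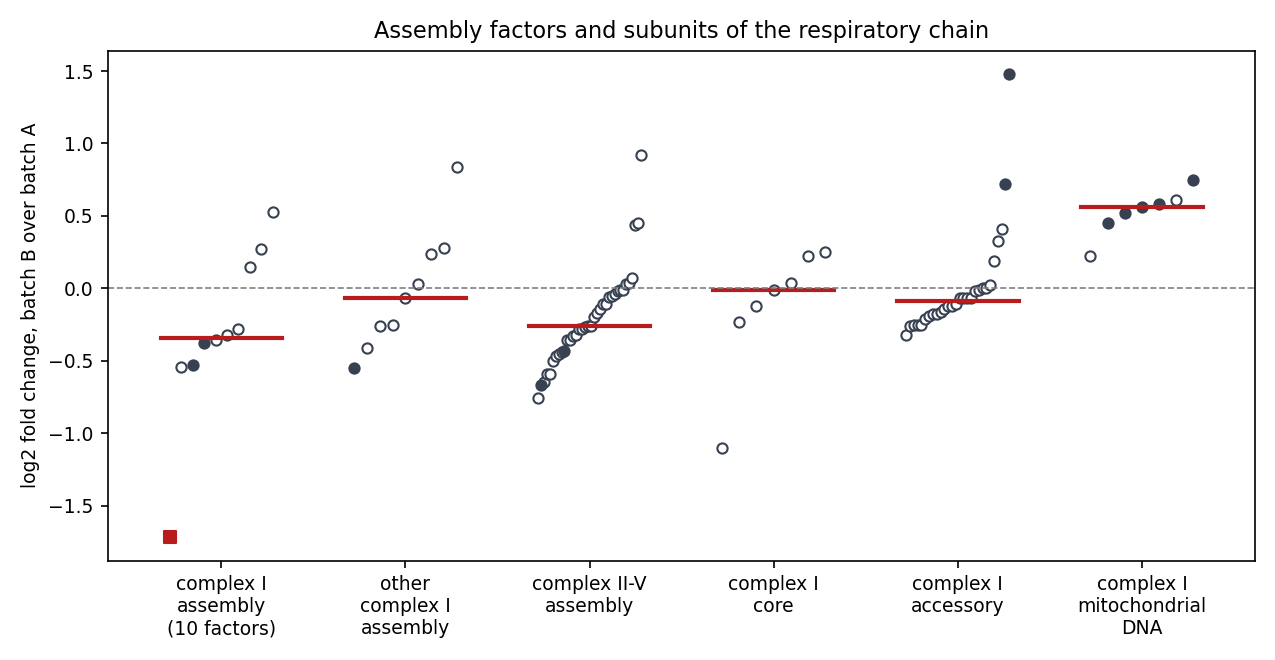
Log2 fold change of batch B over batch A for tested genes of 6 groups, with filled points for an edgeR adjusted p under 0.05, red bars at medians and a dashed line at the median of all tested genes (0.004). The red square is NDUFAF4, given no test. The median is -0.34 for the 10 assembly factors, NDUFAF4 included, -0.26 for the factors of complexes II to V and 0.56 for the mitochondrially encoded subunits.

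Gene copies and neighbours that could share reads or a promoter with the members were then read out. GENCODE annotates 4 processed pseudogenes of NDUFAF4. Aligned to its principal transcript of 2399 bases, they matched with 90.0% to 91.6% identity from base 92 or 93. The matches ended at base 532 at the earliest and 605 at the latest. Only the annotated pseudogene transcripts, of 502 to 525 bases, were aligned, and sequence beside them was not searched. Whether copies reach the very 5' end of NDUFAF4 was therefore not tested. No row carries the names NDUFAF4P1 to NDUFAF4P4, and whether their reads fell on other rows was not tested. The nearest coding genes on either side of NDUFAF4 on chromosome 6 were hardly counted, with KLHL32 at 2.71 ± 2.61 CPM in batch B and 2.91 ± 4.12 CPM in batch A and GPR63 at 8.07 ± 6.04 CPM in batch B and 11.3 ± 1.60 CPM in batch A (SD, n = 3 and 2). On chromosome 3, IMPDH2 and WDR6, the neighbours of NDUFAF3, had log2 fold changes of 0.15 and 0.07 (edgeR adjusted p = 0.548 and 0.894). DALRD3, which overlaps NDUFAF3, was at 20.5 ± 7.89 CPM in batch B and 28.2 ± 11.1 CPM in batch A. Its log2 fold change was -0.55 (SE 0.39, edgeR adjusted p = 0.515), with libraries of the batches overlapping.

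For 4 of the 10 genes a coding gene starts within 1000 bases on the opposite strand, against 13.0% of coding genes in that annotation. These pairs were NDUFAF2 with ERCC8, NDUFAF5 with ESF1, NDUFAF6 with CCNE2 and NDUFAF7 with CEBPZ. ERCC8, a DNA repair gene, was at 19.02 ± 2.92 CPM in batch B and 18.0 ± 2.76 CPM in batch A (log2 fold change 0.13, edgeR adjusted p = 0.931), beside the fall of NDUFAF2. ESF1 was at 0.11, CCNE2 at -0.71 and CEBPZ at -0.06 on the log2 scale, and the 3 missed the threshold (edgeR adjusted p = 0.834, 0.218 and 0.940). Against 4.2% of all tested genes called, 1 of 16 tested neighbours of the 10 genes was called. It was NUSAP1, a spindle protein gene beside NDUFAF1, which rose by 0.45 (edgeR adjusted p = 0.0439), at 172 ± 17.5 CPM in batch B and 129 ± 5.67 CPM in batch A. It lost this call under 8 of 11 alternatives, omission of either batch A library or of batch B library 2 or 3 among them (edgeR adjusted p of at most 0.489). Whether the authors' counting used strand is not given in the sources used here, so reads of overlapping genes cannot be told apart.

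The rows whose profile over the 5 libraries was nearest to that of NDUFAF4 were found among 7632 other tested genes with a mean of at least 20 CPM, by the Euclidean distance between log2(CPM + 1) values after subtraction of each gene's own mean. They were CTD-2319I12.1 (distance 0.524), AC020983.5 (0.535), RP11-175B9.3 (0.569), WDR44 (0.615) and AC004057.1 (0.634), against a median distance of 1.95. Of these WDR44 encodes a protein with WD repeats that binds the small GTPase RAB11, and the others are clone-named rows. WDR44 had 16.1, 19.1 and 14.6 CPM in batch B libraries 1, 2 and 3, against 40.8 and 39.8 CPM in batch A libraries 2 and 3. AC004057.1, the most counted of the 5, had 34.8, 62.6 and 58.4 CPM in batch B, against 140 and 173 CPM in batch A. They were selected for low values in batch B, which is therefore no finding.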

How the data were processed

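The deposited table gives, for each library, an integer count for each gene, made by the authors without normalization. The submitters' processing notes name cutadapt 1.2.1, STAR 2.4.0a and the builds hg19 and GRCh37. Gene annotation and strand use are not stated there, and whether molecular identifiers were collapsed is likewise not given in the sources used here. A prefix common to column names and sample titles placed each column in its batch. ERCC spike-ins were left out.

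The 5 libraries held 373687 to 803168 gene counts, so that 0 counts allow up to 8.03 CPM at the lowest depth and 3.74 CPM at the highest (3 counts, counting error only). CPM were computed from gene counts. The difference of batch B from batch A was fitted by edgeR 4.0.16 under R 4.3.3 (TMM, filterByExpr, quasi-likelihood F test, batch as only term, Benjamini-Hochberg adjustment over 9215 genes holding 97.1% of gene counts, call at adjusted p under 0.05). The prior degrees of freedom were infinite for all 9215 genes, so the spread is pooled over genes of like abundance. Standard errors are the fold change over the square root of F. Alternatives were DESeq2 size factors, library totals, the DESeq2 1.42.0 Wald test, no filter on low counts, a single seeded thinning to the smallest library, and leaving out each library, where a lone batch A library is assumed to vary like the others. A fit with the number that ends the column names as a block was added after seeing the data. Counts over 9 or 10 genes have no set test.

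The members and lists were chosen with earlier results of these data known. Named are all members, up to 3 called genes of each list by smallest p, clients and partners (1 is not reported here), the called and the nearest neighbours, and the 5 nearest profiles. Transcript lengths, neighbours and pseudogenes came from GENCODE release 29, matched by name and aligned with BLAST 2.17.0. That annotation and the RefSeq promoters are on GRCh38.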

Additional observations from a re-analysis of the deposited data

How the results depend on the processing

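The log2 fold change of NDUFAF4 stayed negative under all 11 alternatives, from -1.84 to -1.60 when a library was left out (the value nearest to 0 without batch A library 2) and between -1.74 and -1.67 under the other 6. The difference in its share of the counts of the 10 genes ran from -19.9 to -15.8 percentage points without a library, around -17.8 with all. The median over the other 9 genes was -0.316 with all libraries and ran from -0.385 to -0.13 without 1, -0.13 without batch A library 3. Of the other 9 genes, 2 were called with all libraries, 0 to 1 without a library, and 1 (NDUFAF3) with the DESeq2 Wald test, without a filter, after thinning and with the block described below. With NDUFAF4, which was chosen by this difference, these counts are 3 with all libraries and 1 to 2 without a library. DESeq2 gave an adjusted p for 3 of the 10. Over all genes 387 calls became 114 with the DESeq2 Wald test (1610 genes with an adjusted p), 209 after thinning and 138 to 333 without a library. Fitted values that changed sign, none of them called, were those of NDUFAF6 (-0.642 to 0.085 without a library, the positive value without batch A library 3), CEBPZ (-0.354 to 0.24), ESF1 (-0.054 to 0.351), WDR6 (-0.04 to 0.116) and PHB2 (-0.05 to 0.127, and -0.02 with library totals, -0.016 without a filter and -0.057 with the block). The cause was not tested. Depth limits the low members: NDUFAF5 and NDUFAF7 had 6 to 26 counts a library, so that modest differences were not detectable. The columns of batch A end in 2 and 3 while its labels number the replicates 1 and 2, so the column numbers are not known to pair libraries. Deviations from the batch means correlated at 0.0107 between the libraries that end in 2 and at -0.0182 between those that end in 3 (across genes, which are not independent). With 2 libraries in batch A their deviations mirror each other, so the unmatched pairs gave -0.0107 and 0.0182. These values therefore cannot decide whether the column numbers pair libraries. A fit with the column number as a replicate block, chosen after seeing the data, called 394 genes and gave -1.69 for NDUFAF4. It did not call NDUFAF2, ACN9 or COA6 (edgeR adjusted p = 0.113, 0.0561 and 0.319).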
